A study of Mus musculus with 2 samples.

Results

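The genes of oxidative phosphorylation were described in single mouse leukemia cells, which the labels name I1DN LSCs. Members were the matrix rows whose symbols mark mitochondrially encoded genes or subunits of complexes I to V (symbols starting with mt-, Nduf followed by a, b, c, s or v, Uqcr, Cox4 to Cox8 or Atp5, and Sdha to Sdhd). A member had to reach 500 unique molecular identifiers (UMIs, counted RNA molecules) over both libraries' kept cells. Of 106 matching rows 98 reached it, 13 mitochondrial and 85 nuclear, among 9419 such genes in a matrix of 31053 rows. Mice carrying I1DN leukemia were given AG-120 (ivosidenib, an inhibitor of mutant IDH1) or vehicle for 5 days, and cells positive for cKit and negative for Cd11b were sorted. Each treatment has 1 library. The genotype behind the name I1DN, the dose, the number of mice per library and their age are not given in the sources used here.

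Oxidative phosphorylation passes electrons from NADH and succinate through complexes I to IV of the inner mitochondrial membrane to oxygen, and complex V, the ATP synthase, uses the resulting proton gradient to make ATP. The mitochondrial genome encodes a few core subunits of complexes I, III, IV and V and none of complex II, while all other subunits come from nuclear genes and are imported. Klf1 is a transcription factor of the red cell lineage, in which precursors build up and later lose their mitochondria.

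Cells were kept when 500 or more genes were detected and mitochondrial UMIs did not pass 10%; they numbered 3914 in the vehicle library and 3756 in the AG-120 library, with median depths of 13156.5 and 25681.5 UMIs. The libraries shared 20 cell barcodes. Levels are UMIs per 1000000 summed UMIs of the cells compared (CPM). The words higher and lower stand for a ratio of at least 1.2-fold, without a test, and 95% intervals cover counting error only. With 1 library per treatment, every treatment difference compares 2 libraries and has no replicate check, and a summed level cannot tell more cells of a type from more RNA per cell. Klf1-positive cells had at least 1 Klf1 UMI after each cell was thinned to 6500 UMIs: 201 of 3553 vehicle cells (5.66%, exact interval 4.92 to 6.47) and 2313 of 3625 AG-120 cells (63.8%, 62.2 to 65.4). Among cells led by neutrophil genes, which should lack Klf1, 0 of 24 vehicle and 2 of 21 AG-120 cells had a Klf1 UMI, at median depths of 19109.5 and 15905 UMIs before thinning. Kit, the sorted surface receptor, was at 58.3 CPM in vehicle and 30.4 in AG-120 cells, and Itgam, which encodes Cd11b, at 5.51 and 0.937. Markers of several cell types also differed between the libraries: the 13 erythroid markers summed to 462 CPM in vehicle and 3052 in AG-120 cells, with 12 higher, the 8 neutrophil markers to 1911 and 524, all lower, and the 8 megakaryocyte and 7 stem and early progenitor markers to 861 and 79.8 and to 1188 and 114, with all 6 and 5 measured ones lower. Granulocyte-monocyte progenitor markers summed to 2976 CPM in vehicle and 982 in AG-120 cells, with 5 of 6 measured ones lower. Monocyte markers summed to 283 and 38.8 CPM, with both of the 2 measured ones lower. Eosinophil, basophil and mast cell markers summed to 402 and 214 CPM, with 3 of 5 measured ones higher and 1 lower. The 6 lymphoid markers summed to 1.90 and 0.687 CPM. The part of these cell types in the differences below was not tested.

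Over all kept cells, the summed shares of nuclear and of mitochondrial members differed in opposite directions between the libraries. Nuclear members made up 2.42% of vehicle and 3.07% of AG-120 UMIs, a ratio of 1.27 (1.268 to 1.273), and mitochondrial members 3.13% and 2.57%, a ratio of 0.819 (0.817 to 0.821). There were thus 0.772 nuclear UMIs per mitochondrial UMI in vehicle cells and 1.198 in AG-120 cells. The mitochondrial genes were not alike, with log2 ratios above 0 for 4 and below 0 for 9. Their sum was 31323 CPM in vehicle and 25651 in AG-120 cells, of which mt-Co1 alone held 7437 and 3374. The 7 mitochondrial genes of complex I summed to 5436 and 7123 CPM. The mitochondrial ratio rests on cells filtered by that same share: it was 0.862 with a limit of 5% and 0.826 without a limit. Over genes, 59 of the 98 members were higher and 11 lower in the AG-120 library, against 28.8% higher and 42.2% lower among all measured genes. Of the 85 nuclear members 56 were higher and 4 lower, with a median log2 ratio of 0.40, and of the 13 mitochondrial members 3 were higher and 7 lower, with a median of −0.26. The median over all measured genes was −0.12. Relative to it the medians were 0.52 and −0.14, with 4 mitochondrial members higher and 5 lower (35.5% and 35.7% of all genes). Among cells of 12000 to 20000 UMIs, where the libraries' depths are closer (medians of 15257 and 16812), 46 nuclear members were higher and 4 lower, with a median of 0.29. Of all measured genes 25.9% were higher and 36.8% lower there. In the same cells 4 mitochondrial members were higher and 4 lower, and their median of −0.07 was no lower than the −0.08 over all genes, so that the mitochondrial side of the contrast was not seen in the median there, although mt-Co1 stayed low at −0.84. Cytosolic ribosomal protein genes, another set of short and abundant transcripts, had a median of 0.08 over 80 genes, with 13 higher and 14 lower.

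**Figure D1:**
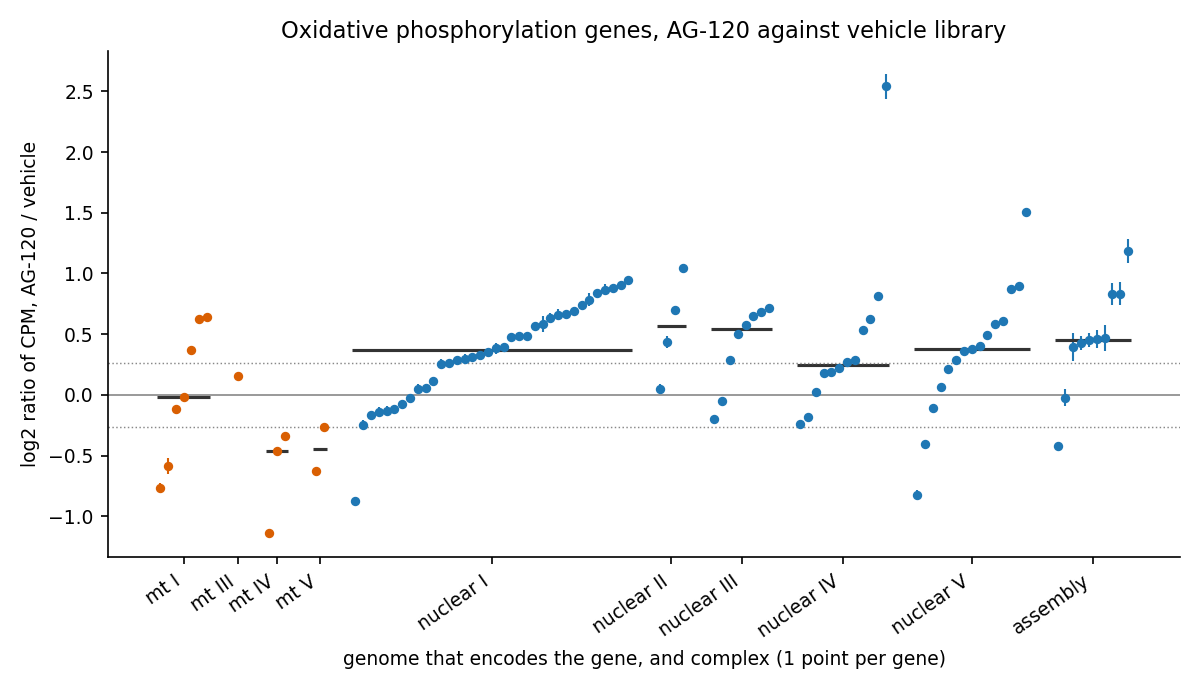
Each point is the log2 ratio of CPM, AG-120 over vehicle, of 1 member, with its 95% counting interval, grouped by encoding genome and complex, with the group median as a bar and dotted lines at 1.2-fold. Most nuclear genes sit above 0, with Cox6b2 at 2.54 and Atp5g1 at 1.51, while the 3 mitochondrial genes of complex IV sit at or below −0.34.

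In complex I, which takes electrons from NADH, 23 of 36 nuclear subunits were higher and 1 was lower (median 0.37). Among all measured genes 28.8% were higher and 42.2% lower, with a median of −0.12. These shares apply to each group described below. The 7 nuclear core subunits, which include the carriers of the flavin and the iron-sulfur clusters and are conserved from bacteria, were all higher, with a median of 0.66. Of the 29 accessory subunits, which surround the core, 16 were higher and 1 lower, with a median of 0.31. Ndufs7, a core subunit with an iron-sulfur cluster, was at 171 CPM in vehicle and 321 in AG-120 cells, 1.87-fold higher (1.83 to 1.92). The highest ratio of the complex was that of Ndufb9, an accessory subunit, at 213 and 409 CPM, 1.92-fold higher (1.88 to 1.96); Ndufab1, the mitochondrial acyl carrier protein, was at 265 and 489 CPM. Ndufa3, an accessory subunit of the membrane arm, lay apart from the others, at 307 CPM in vehicle and 168 in AG-120 cells, 1.83-fold lower (1.80 to 1.87). Ndufa1 and Ndufa13 had log2 ratios of −0.25 and −0.16, short of 1.2-fold. Ndufb9 and Ndufa13 share their strand and part of their locus with another annotated gene (Gm49356 and Yjefn3), so their counts are less certain.

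In complex II, succinate dehydrogenase, 3 of 4 subunits were higher (median 0.57), beside 28.8% of all measured genes. Sdhd, a membrane anchor, was at 142 CPM in vehicle and 292 in AG-120 cells, 2.06-fold higher (2.01 to 2.11), and Sdhb, the iron-sulfur subunit, and Sdhc, the other anchor, had log2 ratios of 0.70 and 0.43. Sdha, the flavoprotein that oxidises succinate, was at 134 and 139 CPM, a log2 ratio of 0.05. The 4 subunits of this 1 enzyme therefore had unequal ratios. In complex III, which passes electrons from ubiquinol to cytochrome c, 6 of 8 nuclear subunits were higher and 0 lower (median 0.54). Uqcrc1, a core protein, stood at 191 and 313 CPM (log2 ratio 0.72), Uqcrfs1, the Rieske iron-sulfur protein, at 173 and 277 (0.68), and Uqcrq at 241 and 378 (0.65). The small subunits Uqcrb and Uqcrh, the hinge protein, had log2 ratios of −0.05 and −0.20.

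In complex IV, cytochrome c oxidase, 6 of 12 measured nuclear subunits were higher and 0 lower (28.8% and 42.2% of all genes). Their median of 0.24 was the lowest among the nuclear groups. Cox6b2, the testis form of subunit 6b, had the highest ratio of all members. It was at 14.9 CPM in vehicle and 86.8 in AG-120 cells, 5.82-fold higher (5.42 to 6.25), while Cox6b1, the common form, was at 453 and 546 CPM, a log2 ratio of 0.27. Cox6b2 thus made up 839 of the 26331 UMIs of the pair in vehicle cells (3.19%) and 8341 of 60777 in AG-120 cells (13.7%). Among cells thinned to 6500 UMIs, 7.99% of vehicle and 37.6% of AG-120 cells had a Cox6b2 UMI (16.3% and 72.8% before thinning), against 0 of 24 (up to 14.2%) and 4 of 21 cells led by neutrophil genes. Before thinning the latter held a Cox6b2 UMI in 16.7% of vehicle and 33.3% of AG-120 cells, and the vehicle value is near that over all vehicle cells. Depths were unlike, however, with medians of 19109.5 UMIs in the 24 vehicle cells and 13822 over all vehicle cells. What background RNA adds to the Cox6b2 counts was not tested. Cox6a1, at 361 and 636 CPM, and Cox5b, at 493 and 760 CPM, followed with log2 ratios of 0.82 and 0.62. Cox5b has a near-identical copy, Gm11273, that is itself a row of the matrix, and its effect on the count was not tested. Cox4i1, the main form of subunit 4, was at 756 and 1097 CPM (0.54); its locus overlaps that of Gm20388 on the same strand. Cox6c and Cox7c, small subunits, had log2 ratios of −0.24 and −0.18, and Ndufa4, first assigned to complex I and now counted with complex IV, one of 0.03.

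Other tissue forms of complex IV subunits were near the detection limit. Cox4i2, the lung form of subunit 4, had 134 UMIs in vehicle and 34 in AG-120 cells, 0.314% (0.263 to 0.372) and 0.0322% (0.0223 to 0.0450) of the UMIs of the Cox4i pair. Cox7a1, the heart and muscle form of subunit 7a, had 34 and 23 UMIs, 0.158% and 0.0537% of those of Cox7a1 and Cox7a2. Cox6a2, the heart and muscle form of subunit 6a, had 3 and 56 UMIs, and Ndufa4l2, a relative of Ndufa4, 0 and 44, where a count of 0 allows up to 3. Cox7b2, Cox8b, Cox8c and the second row named Atp5o had 0 UMIs in both libraries, and these 8 rows make up the matching rows below the minimum.

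In complex V, the ATP synthase, 10 of 15 measured nuclear members were higher and 2 lower (28.8% and 42.2% of all genes). Their median was 0.38. Atp5b, the catalytic beta subunit, was at 561 CPM in vehicle and 1027 in AG-120 cells, 1.83-fold higher (1.81 to 1.85). The 3 genes of the membrane c subunit, which encode the same mature protein behind different import sequences, had unequal ratios. Atp5g1 was at 274 and 779 CPM, 2.85-fold higher (2.80 to 2.90), Atp5g3 at 664 and 1237 CPM (1.86-fold), and Atp5g2 at 868 and 1128 CPM (1.30-fold). Of the UMIs of the 3 genes, Atp5g1 held 15.1% (14.9 to 15.4) in vehicle and 24.8% (24.6 to 24.9) in AG-120 cells, and Atp5g2 48.1% and 35.9%; these shares are not corrected for length. Atp5g1 and Atp5g2 have near-identical copies elsewhere in the genome that are not rows of the matrix, and what reads from those copies add to the counts was not tested. The lower members were Atp5k, subunit e, at 163 and 92.3 CPM, 1.77-fold lower (1.72 to 1.82), and Atp5e, the epsilon subunit, at 853 and 645 CPM, 1.32-fold lower (1.31 to 1.34). The group of 10 assembly and related factors had 8 higher and 1 lower: Ndufaf6, a complex I assembly factor, was at 18.9 and 42.9 CPM, 2.27-fold higher (2.13 to 2.44), and Cox7a2l, which links complexes III and IV, at 262 and 196 CPM, 1.34-fold lower (1.31 to 1.37).

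The upstream sequences of these 2 gene families are shown because their members code for the same or a related subunit but had unlike ratios. Each is the 250 bases before the RefSeq start of transcription (GRCm38.p6), 5′ to 3′ on the gene's strand. Capitals mark matches on either strand to the NRF1 core GCGCATGC, the ETS core CCGGAAG, bound by GABP, the YY1 core AAGATGG, the GATA core AGATAA and the TATA box TATAAA.
Atp5g1 (chr11:96075632-96075881, strand −): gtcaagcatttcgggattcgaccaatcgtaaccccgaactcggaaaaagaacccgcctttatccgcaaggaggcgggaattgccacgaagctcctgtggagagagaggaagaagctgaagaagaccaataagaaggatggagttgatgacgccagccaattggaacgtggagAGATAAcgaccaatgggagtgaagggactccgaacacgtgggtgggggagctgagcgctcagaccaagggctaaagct
Atp5g2 (chr15:102671048-102671297, strand −): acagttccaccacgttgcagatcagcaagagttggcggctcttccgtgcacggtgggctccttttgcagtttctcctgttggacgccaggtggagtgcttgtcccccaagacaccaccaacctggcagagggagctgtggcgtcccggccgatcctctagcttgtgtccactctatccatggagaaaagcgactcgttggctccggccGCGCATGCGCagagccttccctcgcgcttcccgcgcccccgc
Atp5g3 (chr2:73911327-73911576, strand −): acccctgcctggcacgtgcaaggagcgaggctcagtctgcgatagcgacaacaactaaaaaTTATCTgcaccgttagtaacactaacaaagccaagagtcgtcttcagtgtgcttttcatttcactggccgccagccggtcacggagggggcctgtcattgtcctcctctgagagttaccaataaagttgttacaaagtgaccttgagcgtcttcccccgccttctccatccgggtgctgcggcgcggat
Cox6b1 (chr7:30626115-30626364, strand −): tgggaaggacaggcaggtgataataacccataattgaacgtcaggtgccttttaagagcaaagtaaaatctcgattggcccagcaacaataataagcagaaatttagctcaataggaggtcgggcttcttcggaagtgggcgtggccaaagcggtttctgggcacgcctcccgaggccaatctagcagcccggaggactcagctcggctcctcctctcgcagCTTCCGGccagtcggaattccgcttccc
Cox6b2 (chr7:4753095-4753344, strand −): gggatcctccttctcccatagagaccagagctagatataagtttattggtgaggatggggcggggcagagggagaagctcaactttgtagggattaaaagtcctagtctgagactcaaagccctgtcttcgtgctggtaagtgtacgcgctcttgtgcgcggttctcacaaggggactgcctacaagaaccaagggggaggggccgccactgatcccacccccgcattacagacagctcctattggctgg
Atp5g1 and Atp5g3 each had 1 GATA match, Atp5g2 overlapping NRF1 matches, Cox6b1 an ETS match, and Cox6b2 none of the 5. The looser motif CCNCNCCC, of the kind bound by KLF1, had 4 matches in Cox6b2, 1 each in Atp5g1, Atp5g2 and Cox6b1, and 0 in Atp5g3; it can overlap other C-rich motifs. Windows were found for 73 of the 85 nuclear members, 78 windows in all. The NRF1 core was in 11.5% of them, against 4.91% of the windows of genes with 500 UMIs or more and 2.26% of all windows. The ETS core was in 17.9%, 15.7% and 6.91%, the GATA core in 6.41%, 5.79% and 9.99%, and CCNCNCCC in 57.7%, 62.9% and 45.9%. Lower shares of member windows than of those of genes with 500 UMIs or more held the YY1 core (1.28%, 4.58% and 4.49%). For the members this is 1 of 78 windows. The same order was seen for CCGCCC, of the kind bound by SP and KLF factors (38.5%, 59.2% and 32.7%). The TATA box was in 7.69%, 5.76% and 12.4%. A match is a description of the letters in this window, and bases after the start of transcription were not scanned.

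The mitochondrial genes did not differ as a block, although the genome is transcribed as long precursors from each strand that are then cut apart. In the order of the genome, mt-Nd1 and mt-Nd2, subunits of complex I, were at 1519 and 685 CPM in vehicle and 2368 and 1057 in AG-120 cells, 1.56-fold (1.55 to 1.57) and 1.54-fold (1.52 to 1.56) higher. The next gene, mt-Co1, the catalytic subunit of complex IV, was at 7437 and 3374 CPM, 2.20-fold lower (2.19 to 2.21). It held 23.7% of mitochondrial UMIs in vehicle and 13.2% in AG-120 cells. The other catalytic and core subunits of complex IV, mt-Co2 and mt-Co3, had log2 ratios of −0.34 and −0.46, and mt-Atp8 and mt-Atp6 of complex V −0.26 and −0.63. Further on, mt-Nd3 was at 222 and 131 CPM (−0.77), mt-Nd4l at 2119 and 2735 (0.37), mt-Nd4 at 408 and 403 (−0.02) and mt-Nd5 at 421 and 389 (−0.11). The only gene on the other strand, mt-Nd6, was at 61.8 and 41.1 CPM (−0.59), and mt-Cytb of complex III at 2565 and 2853 (0.15). Relative to the median over all genes, mt-Co2 and mt-Atp8 stayed within 1.2-fold. Among cells of 12000 to 20000 UMIs mt-Co1 had a log2 ratio of −0.84, with 4 mitochondrial members higher and 4 lower (25.9% and 36.8% of all genes). For 7 of the 13 genes the annotation holds near-identical nuclear copies that are not rows of the matrix (mt-Co1, mt-Co2, mt-Atp6, mt-Co3, mt-Nd3, mt-Nd4l and mt-Nd4); what they add was not tested.

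Both of the gene pairs that are carried on shared messenger RNAs were counted mostly at the upstream gene. The 43 bases shared by mt-Atp8 and mt-Atp6 are shown because reads inside them fit both genes; they lie within the coding sequence of both, on the + strand of chrM:7927-7969 (GRCm38).
shared bases of mt-Atp8 and mt-Atp6: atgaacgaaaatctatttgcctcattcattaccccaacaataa
Of the UMIs of mt-Atp8 and mt-Atp6, 82.6% in vehicle and 86.0% in AG-120 cells were counted for mt-Atp8, although it is the shorter, at 204 against 681 nt. Of those of mt-Nd4l and mt-Nd4, which share 7 bases, 83.9% and 87.2% were counted for mt-Nd4l, of 297 against 1378 nt. A near-identical nuclear copy matches 678 nt of mt-Atp6 at 100% identity, and none was found for mt-Atp8. Both mt-Nd4l and mt-Nd4 have such copies. The protocol names a kit that reads 5′ ends, and the design text a 3′ platform. How the kit and the copies bear on these shares was not tested.

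**Figure D2:**
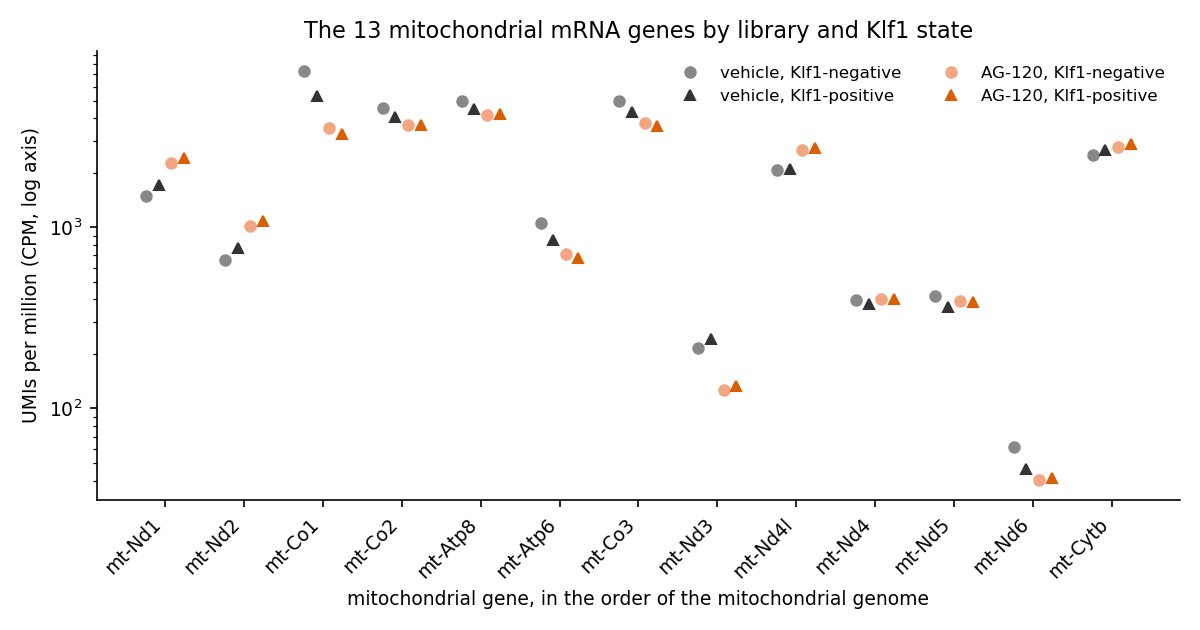
Levels (CPM, log axis) of the 13 mitochondrial genes in genome order, for the 4 combinations of library and Klf1 state. At mt-Co1 the levels run from 7296 in vehicle Klf1-negative cells through 5344 in vehicle Klf1-positive cells to 3520 and 3285 in AG-120 cells, and at mt-Nd1 in the reverse order, from 1482 to 2426.

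Within the vehicle library, Klf1-positive cells held a larger share of nuclear and a smaller share of mitochondrial UMIs of the system. Nuclear members were 2.77% of UMIs in Klf1-positive and 2.42% in Klf1-negative cells, and mitochondrial members 2.74% and 3.08%. Of the 98 members 34 were higher, all nuclear, and 3 lower, all mitochondrial, against 27.7% higher and 21.8% lower among all measured genes, so that the share of members higher was near that of all genes. The nuclear median was 0.21, with the median of all genes at 0.06. By complex the medians were 0.25, 0.32, 0.21, 0.15 and 0.21 for I to V, and 6 of the 7 core subunits of complex I were higher. Cox6b2 was at 12.4 CPM in Klf1-negative and 50.1 in Klf1-positive cells, 4.04-fold higher (3.41 to 4.77), Atp5g1 at 268 and 407 (1.52-fold, 1.44 to 1.60) and Ndufb9 at 208 and 309 (1.48-fold, 1.40 to 1.58). The lower members were mt-Co1, at 7296 and 5344 CPM, 1.37-fold lower (1.35 to 1.38), mt-Nd6 (1.33-fold) and mt-Atp6 (1.23-fold).

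These counts moved with depth and scaling. Klf1-positive vehicle cells were deeper, at a median of 15893 against 13718.5 UMIs. Without the deepest 5% of cells 18 members were higher (28.1% of all genes), and relative to the median over all genes 20 (22.0%). Among cells of 12000 to 20000 UMIs (88 Klf1-positive and 1426 Klf1-negative) 12 were higher, against 30.2% of all genes, with a nuclear median of 0.10 beside 0.08 over all genes. In that window Cox6b2 had a log2 ratio of 1.78, Ndufb9 of 0.40 and mt-Co1 of −0.25, and Atp5g1 had one of 0.18. Marker lists of other cells differed between the same cells: the 13 erythroid markers summed to 1921 CPM in Klf1-positive and 353 in Klf1-negative cells, 6 measured granulocyte-monocyte progenitor markers had a median log2 ratio of −3.41, all 6 lower, and 6 measured megakaryocyte markers one of 0.31, with 3 higher and 1 lower. Their part in the result was not tested.

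In the AG-120 library the Klf1 state separated the members little. Of the 98 members 1 was higher and 0 lower, against 4.98% higher and 17.2% lower among all measured genes. The higher one was again Cox6b2, at 73.0 CPM in Klf1-negative and 94.3 in Klf1-positive cells, 1.29-fold (1.23 to 1.35). The nuclear median was 0.06, beside 0.001 over all genes. Apart from Cox6b2, the largest difference among nuclear members was 0.20 (Ndufaf1), and mt-Co1 had a log2 ratio of −0.10. Many Klf1-negative cells here were negative only after thinning: 66.5% of them had a Klf1 UMI in their full counts, against 3.94% of the Klf1-negative vehicle cells. When the negative side was limited to the 245 cells with no thinned UMI of Klf1, Gata1, Ermap, Blvrb or Rhd, 35 members were higher (34.7% of all genes) and 1 lower (30.4%). When the state was taken from full counts, 36 were higher (30.3%) and 1 lower (30.9%). Against the 245 cells, Cox6b2 had a log2 ratio of 2.48, Atp5g1 of 0.83, Ndufb9 of 0.53, mt-Nd1 of 0.49 and mt-Co1 of −0.29. Klf1-negative AG-120 cells carried granulocyte-monocyte progenitor markers at a sum of 2743 CPM, Klf1-positive ones at 74.5, and erythroid markers at 2371 and 3408; the part of these cells in the result was not tested.

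**Figure D3:**
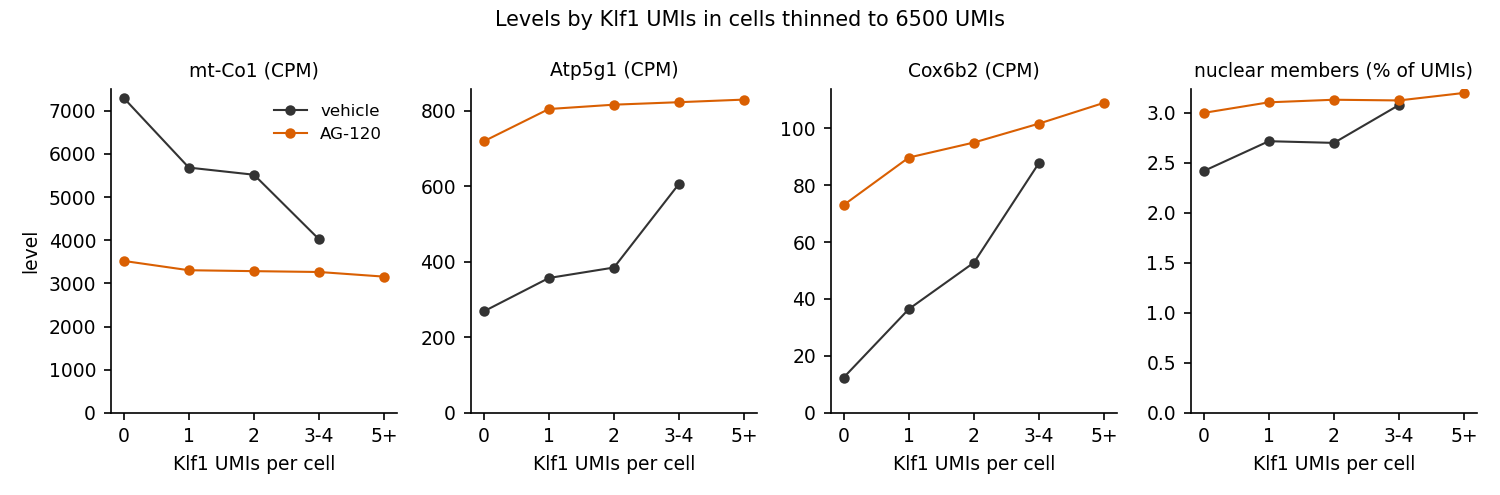
Levels by the number of Klf1 UMIs per thinned cell in each library (bins of 20 or more cells). In vehicle cells mt-Co1 goes from 7296 CPM at 0 UMIs to 4018 at 3 to 4, Atp5g1 from 268 to 607 and Cox6b2 from 12.4 to 87.9, toward the AG-120 values, which lie between 3155 and 3520, 719 and 829, and 73.0 and 109.

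Graded by Klf1 UMIs, vehicle cells with 3 to 4 lay nearer to the AG-120 levels than those with 0, on few cells and not always in steady steps. With 0, 1, 2 and 3 to 4 Klf1 UMIs (3352, 137, 38 and 22 cells), mt-Co1 was at 7296, 5682, 5516 and 4018 CPM and Cox6b2 at 12.4, 36.5, 52.8 and 87.9. Atp5g1 was at 268, 357, 385 and 607 CPM, and nuclear members together at 2.42%, 2.71%, 2.70% and 3.08% of UMIs. Other members were lower at 2 than at 1 Klf1 UMI: mt-Nd1 was at 1482, 1651, 1492 and 2173 CPM, Sdhd at 140, 172, 146 and 291, and Atp5g3 at 662, 759, 747 and 1009. The cells with 3 to 4 Klf1 UMIs were also deeper, at a median of 22407 UMIs against 13718.5 for those with 0. AG-120 cells spanned less: from 0 to 5 or more Klf1 UMIs (1312 and 56 cells), mt-Co1 was at 3520 and 3155 CPM, Cox6b2 at 73.0 and 109, and nuclear members at 2.997% and 3.196%. Ndufa3 and Atp5k did not follow: at 3 to 4 Klf1 UMIs vehicle cells held 343 and 260 CPM, and AG-120 cells 163 and 90.9. The 4 vehicle cells with 5 or more Klf1 UMIs are left out here; their mt-Co1 level was 4269 CPM and their Cox6b2 level 119.

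Compared within a Klf1 state, the libraries still differed, and which state showed the larger difference depended on how the Klf1-negative cells were chosen. In Klf1-negative cells 58 members were higher and 10 lower in the AG-120 library (28.3% and 39.4% of all genes), with medians of 0.37 for nuclear and −0.25 for mitochondrial members. In Klf1-positive cells 43 were higher and 14 lower (23.8% and 44.0% of all genes), with medians of 0.21 and −0.09 and a median over all genes of −0.17. Relative to that median, 54 were higher and 6 lower (33.1% and 34.3% of all genes), and the mitochondrial median was 0.08. Both comparisons use 2 libraries and the difference between them has no test. Cox6b2 was 5.89-fold higher (5.39 to 6.44) in Klf1-negative and 1.88-fold (1.63 to 2.19) in Klf1-positive cells, and Atp5g1 2.68-fold (2.62 to 2.74) and 2.00-fold (1.90 to 2.10). For mt-Co1 the ratios were 2.07-fold (2.06 to 2.09) and 1.63-fold (1.60 to 1.65) lower. The Klf1-negative ratios depend on which cells count as negative. With only cells free of other erythroid UMIs (2471 vehicle and 245 AG-120), the log2 ratio of Cox6b2 was 0.51 in place of 2.56, that of Atp5g1 0.78 in place of 1.42 and that of mt-Nd1 0.23 in place of 0.61, while mt-Co1 had −0.89 beside −1.05. The first 3 of these then lay under the Klf1-positive values of 0.91, 1.00 and 0.50, which reverses their order. With those cells 42 members were higher in Klf1-negative and 43 in Klf1-positive cells (21.4% and 23.8% of all genes). With the state from full counts these were 44 and 46 (21.6% and 23.8%), with nuclear medians of 0.26 in both states. For the 2 lowest nuclear members the difference was larger in Klf1-positive cells: Atp5k was 1.75-fold lower (1.67 to 1.82) in Klf1-negative and 2.20-fold (2.03 to 2.37) in Klf1-positive cells, and Ndufa3 1.78-fold (1.73 to 1.84) and 2.08-fold (1.96 to 2.21). Within vehicle cells the same genes had log2 ratios of 0.32 and 0.16 between Klf1-positive and Klf1-negative cells. Klf1-positive cells were not alike in the 2 libraries: their erythroid markers summed to 1921 CPM in vehicle and 3408 in AG-120 cells, and megakaryocyte markers to 1216 and 42.2. Nor were the Klf1-negative cells. Their erythroid markers summed to 353 CPM in vehicle and 2371 in AG-120 cells, with 12 of 13 higher. Their megakaryocyte markers summed to 821 and 136 CPM, and their stem and early progenitor markers to 1191 and 183. What the mix adds in either state was not tested.

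**Figure D4:**
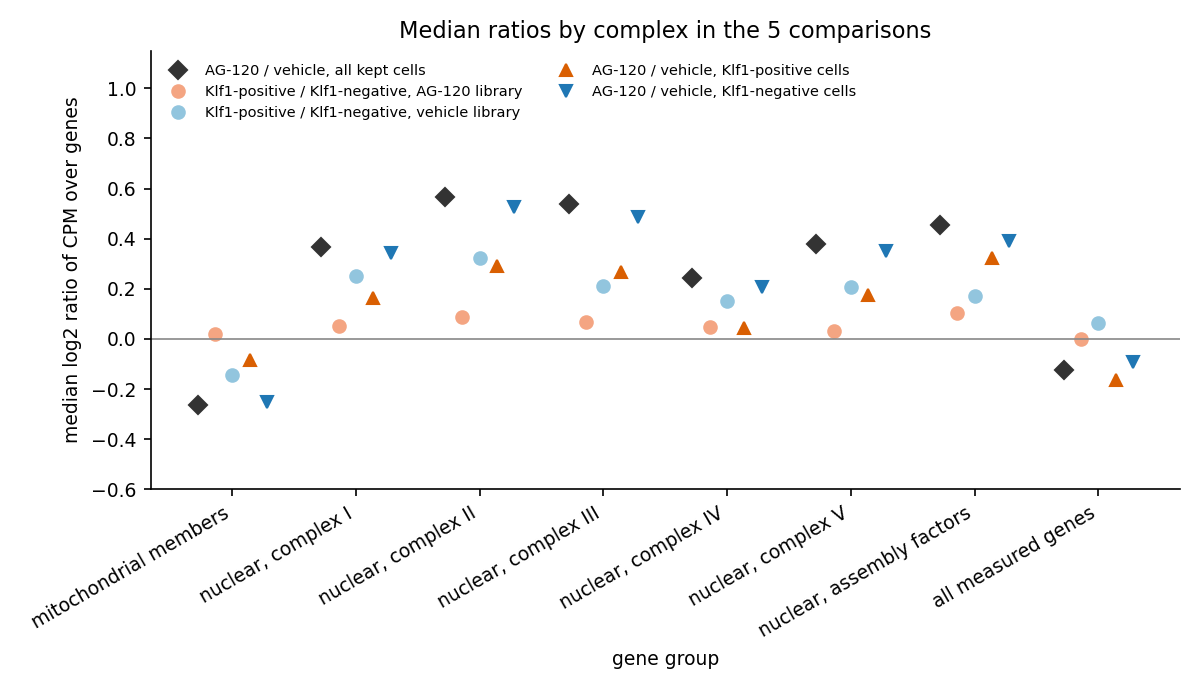
Median log2 ratio of CPM for each gene group (horizontal axis) in the 5 comparisons (symbols). The 5 nuclear complexes lie above the median of all genes in each comparison, and in the Klf1 comparison of the AG-120 library their medians are between 0.03 and 0.09.

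Short and longer transcripts differed between the libraries, and among nuclear members the short ones had the lower ratios. The 46 nuclear members under 1000 nt had a median log2 ratio of 0.29, with 25 higher and 3 lower. The 39 longer ones had 0.50, with 31 higher and 1 lower. Of all measured short genes 39.1% were higher and 29.7% lower, and of all longer ones 28.0% and 43.2%. At this split the difference, −0.22, was opposite in sign to that over all measured genes, where 690 short genes had a median of 0.11 and 8725 longer ones −0.14. With a split at 700 nt the difference was −0.27 for the members and 0.006 over all genes. The 2 groups also differ in their lengths: 5554 measured genes but only 7 nuclear members have 2500 nt or more. By length, medians of nuclear members were −0.25 below 500 nt (5 genes), 0.24 from 500 to 700 nt (24), 0.43 from 700 to 1000 nt (17), 0.55 from 1000 to 1500 nt (18), 0.58 from 1500 to 2500 nt (14) and 0.45 above (7). All measured genes had medians of −0.42, 0.04, 0.20, 0.20, 0.04 and −0.26 in the same bins, and ribosomal protein genes −0.73 below 500 nt (10 genes). The nuclear members thus lay above the median of all genes in every bin, and both were low below 500 nt. Those 5 members were Atp5k (371 nt, −0.82), Ndufa1 (419 nt, −0.25), Atp5e (421 nt, −0.41), Uqcr10 (434 nt, 0.29) and Uqcr11 (445 nt, 0.58), and Ndufa3, the lowest nuclear member, has 515 nt. Across the 85 nuclear members, Spearman's rho of length and ratio was 0.41, and across 9415 measured genes −0.24; genes are not independent replicates and no p was computed. Where a gene has several principal transcripts the longest was taken, which puts Atp5g1 at 4715 nt; with the shortest the difference was −0.21.

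**Figure D5:**
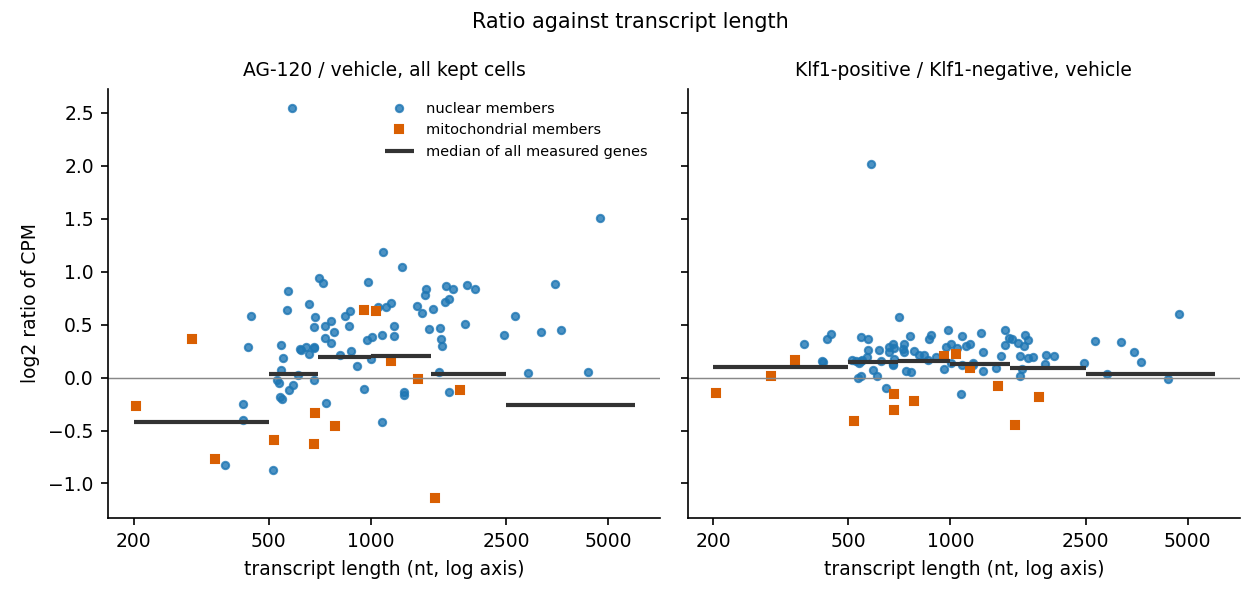
Log2 ratio of CPM against transcript length (nt, log axis) for nuclear and mitochondrial members, with the median of all measured genes per length bin as a bar; the left panel compares the libraries, the right panel Klf1-positive with Klf1-negative vehicle cells. On the left the shortest nuclear member, Atp5k, lies at −0.82; on the right short and longer nuclear members share a median of 0.21.

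The relation with length was seen in the comparisons between libraries. Between Klf1 states of the vehicle library short and longer nuclear members both had a median of 0.21 (rho 0.05), and the 5 shortest were at 0.15 to 0.42. In the AG-120 library the medians were 0.05 and 0.08, with a rho of 0.33 over a narrow range of ratios. Between the libraries within Klf1-positive cells they were 0.02 and 0.38 (rho 0.45), and within Klf1-negative cells 0.27 and 0.47. In the Klf1-positive comparison 7 of 46 short and 4 of 39 longer members were lower, against 44.0% of all genes of any length. The 13 mitochondrial members showed no such order across libraries (rho 0.15): mt-Nd4l, of 297 nt, was higher and mt-Co1, of 1545 nt, the lowest.

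Genes of the same system outside the symbol rule had a similar spread. Of 81 measured genes in 8 lists 47 were higher and 5 lower between the libraries (28.8% and 42.2% of all genes), with a median of 0.35. Assembly factors were higher in 7 of 11 for complex I, 4 of 4 for complex II, 4 of 6 for complex III, 12 of 22 for complex IV and 2 of 4 for complex V; the only lower one was Pet100 of complex IV, at 104 CPM in vehicle and 44.4 in AG-120 cells. Among 21 genes of mitochondrial transcription and RNA handling 14 were higher and 0 lower, with Fastkd2, an RNA-binding protein of mitochondria, at 15.2 and 30.4 CPM and Supv3l1, a mitochondrial RNA helicase, at 13.9 and 27.3. Cyc1, the cytochrome c1 of complex III, was at 162 and 349 CPM (log2 ratio 1.11), and Atpif1, the inhibitor of ATP synthase, at 872 and 1442 (0.73), whereas the small ATP synthase subunits Usmg5 and 2010107E04Rik had −0.40 and −0.44. Of 6 regulators of such genes 1 was higher, Pprc1 (0.69), and 1 lower, Gabpb1, a subunit of the ETS factor GABP, at 55.0 and 27.5 CPM. Between Klf1 states 28 of the 81 were higher and 5 lower in the vehicle library (27.7% and 21.8% of all genes), and 1 and 1 in the AG-120 library (4.98% and 17.2%).

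Across single cells the shares of the 2 genomes were related differently in the libraries. In vehicle cells the median cell held 3.11% mitochondrial and 2.30% nuclear UMIs of the system, with 5th to 95th percentiles of 2.07 to 6.52% and 1.55 to 2.99%. In AG-120 cells the medians were 2.52% and 3.05%, with 1.90 to 3.76% and 2.24 to 3.55%. Spearman's rho of the shares was −0.58 over 3914 vehicle cells and 0.01 over 3756 AG-120 cells, as a description of cells that share a library and whose shares have the same denominator. With cells of at most 5% mitochondrial UMIs the values were −0.48 and 0.02, and within Klf1-positive cells −0.31 and 0.02.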

How the data were processed

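RNA of single cells was counted in 1 vehicle and 1 AG-120 library. The submitters' processing notes list Cell Ranger 3.1.0, Seurat 4.0.4 and the build mm10 (GRCm38), and a matrix header names software version 3.0.2. Per the file headers and values, the deposited matrices are UMI counts per gene and barcode, not normalized by the authors. The vehicle matrix has 4146 barcodes and 56821757 UMIs, and the AG-120 matrix 4016 and 96919988. No doublet caller was run, and authors' cell types were not used. UMIs were summed per library and Klf1 state and scaled by the sum over all genes of those cells. Ratios were computed over all genes of 500 UMIs or more, with exact conditional binomial intervals; shares have exact Clopper-Pearson intervals. Thinning to 6500 UMIs left 361 vehicle and 131 AG-120 cells without a Klf1 state; levels use all UMIs of the others. Lengths are those of the APPRIS principal transcript in GENCODE mouse release 21, and near-identical copies share 97% identity over 150 nt or more. Such copies were found for 24 members, among them also Ndufab1, Uqcrb, Cox7c and Cox7a2l, and what they add was not tested. The members, gene lists and markers were chosen with earlier results of these data known. Named genes are all mitochondrial members, the 3 highest and 3 lowest ratios and 2 highest levels of each nuclear group, subunits with alternative forms, the extremes of each Klf1 comparison and of each outside list; a few others were named after their values were seen. No p-value was computed, since each treatment has 1 library. Alternatives changed the scaling, weighting, depth, filters, fold, Klf1 state and length. Scripts ran in Python 3.11.15 (numpy 2.4.6, scipy 1.17.1, pandas 2.3.3, matplotlib 3.10.9) and were tested on simulated data.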

Additional observations from a re-analysis of the deposited data

Results flagged for a closer look

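Signal above the vehicle library was seen for 2 genes of the rule that lie below the 500 UMIs needed for the comparisons. Cox6a2, the heart and muscle form of a complex IV subunit, had 56 UMIs in AG-120 and 3 in vehicle cells. Of the AG-120 UMIs in cells with a Klf1 state, 45 came from 1312 Klf1-negative and 11 from 2313 Klf1-positive cells. Ndufa4l2 had 44 UMIs in AG-120 and 0 in vehicle cells.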

How the results depend on the processing

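Among named members, only ratios near 0 changed sign between the libraries under an alternative (Atp5j2, Ndufa6, Ndufaf2, Ndufb2, Uqcrb, mt-Nd4 and mt-Nd5); none of 1.2-fold or more did. Of the values of the main comparisons under an alternative, 136 stayed within 1.5 times a count, within the interval of a share or equal to 2 decimals for the length difference, and 37 did not. At 1.5-fold, with the shares of all genes in brackets, 28 members were higher and 6 lower between the libraries (15.6% and 27.5%), 11 and 4 in Klf1-positive (10.2% and 26.8%) and 26 and 5 in Klf1-negative cells (14.2% and 23.7%), 2 and 0 between Klf1 states of the vehicle library (9.50% and 10.6%), and 0 were higher between those of the AG-120 library (0.329%). The Klf1 comparison of the AG-120 library moved most, again with the shares of all genes in brackets. With the state from full counts 36 were higher and 1 lower (30.3% and 30.9%). With Klf1-negative cells free of other erythroid UMIs these were 35 and 1 (34.7% and 30.4%). Thinned counts gave 3 higher (9.87%), and a minimum of 50 UMIs 2 lower (23.7%). Among cells of 12000 to 20000 UMIs, a window chosen after seeing the data, 6 were higher (15.7%). The Klf1 comparison of the vehicle library gave 20 higher with median scaling (22.0%) and 18 without the deepest 5% of cells (28.1%). It gave 12 higher and 1 lower in the window (30.2% and 20.6%), and 6 lower with the minimum of 50 UMIs (28.1%). Median scaling left 6 members lower between the libraries within Klf1-positive cells (34.3%). The mitochondrial share ratio was 0.760 with each cell equal, 0.808 thinned, 0.862 with a limit of 5%, 0.826 without a limit and 0.802 without the deepest cells, and the nuclear one 1.31, 1.288 and 1.253 with each cell equal, thinned and with the 5% limit, and 1.289 without the deepest cells. The difference of short and longer nuclear members was −0.27 with a split at 700 nt (0.006 over all genes) and −0.16 at 1500 nt (0.345 over all genes). It was −0.14 with the longest transcript, −0.21 with the shortest principal one and −0.16 with each cell equal. Without genes that have a near-identical copy it was −0.23. This last alternative and the shortest transcript were chosen after seeing the data. The causes of these shifts were not tested. No paired analysis was possible because each treatment has 1 library. Depth limits the vehicle Klf1-positive values, which rest on 201 cells.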
